A study of Mus musculus with 39 samples.

Results

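Ly6c2-expressing cells sorted from the arthritic ankles of HUPO mice, labelled as synovial macrophages and named FI1 (3 libraries), were compared by RNA sequencing with classical monocytes (CM) sorted from the blood of HUPO mice (3 libraries), 6 of the 39 libraries of the series. The libraries were taken by their labels for genotype, tissue and population, with no measured value in the choice. HUPO mice are C57BL/6 animals labelled Flipflox/floxCD11ccre, that is, with both Flip alleles floxed and a cre named for CD11c (Flip is listed as Cflar, CD11c as Itgax). Control mice of the same strain, labelled Flipflox/floxCD11c+, shared the floxed alleles and gave 3 FI1 and 3 CM libraries that were used for a parallel comparison. All mice were 21 to 37 weeks old, and the HUPO mice had established arthritis. No other treatment is named. FI2 and FI3, a pair of further ankle populations of HUPO mice, were used in a last comparison, and the surface markers behind the names are not given in the sources used here. The HUPO FI1 libraries are Ank_1170, Ank_1231 and Ank_1386 and the HUPO CM libraries Bld_1505, Bld_1606 and Bld_1739, named for tissue and animal, so blood and ankle came from different mice, and tissue, animal and collection cannot be told apart.

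Classical monocytes are blood cells with high surface Ly6C that leave the marrow and enter inflamed tissue through the chemokine receptor CCR2, where they can become macrophages. On the way they typically switch on cytokine, chemokine and matrix genes. Flip encodes an inhibitor of caspase-8 that protects cells from death receptor signalling, and the CD11c promoter that drives the cre is used by dendritic cells and by a share of monocytes and macrophages.

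Total counts per library ran from 4470228 to 7469965 in HUPO FI1 and from 4957773 to 6944073 in HUPO CM, while 9454 to 9538 genes had a count in FI1 and 7390 to 8565 in CM. Blood library Bld_1606 had the fewest genes, and its Spearman correlation with the other CM libraries (0.7 and 0.719) was below that between FI1 libraries (0.793 to 0.823). Transcripts of the female-specific Xist were present in all 3 FI1 libraries and in CM Bld_1606 and Bld_1739, and CM Bld_1505 carried Y-linked transcripts. Values below are CPM (counts scaled to the library total, with TMM), given for FI1 in the order Ank_1170, Ank_1231, Ank_1386 and for CM in the order Bld_1505, Bld_1606, Bld_1739. A gene was called when its adjusted p in edgeR's quasi-likelihood test was under 0.05. The SE beside a log2 fold change was worked out from the F statistic of that test. By the labels, the 3 libraries of each FI1 and CM group came from 3 animals. This does not hold for every library in the fit, since control ankle library Ank_1085x5 of another population carried both Xist and Y-linked transcripts. The p-values rest on the spread within groups pooled over all 39 libraries, not over HUPO FI1 and CM alone. Some animals gave libraries of several populations, which the fit treated as independent.

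Both populations carried the transcript that marks classical monocytes. Ly6c2 (chr15:75108158-75111970, GRCm38, minus strand, GENCODE vM21) stood at 3555, 3418 and 2553 CPM in ankle FI1 and 2564, 2341 and 3037 in blood CM, and the groups overlapped (log2 fold change 0.26, SE 0.51, adjusted p = 1). Its level averaged 49 ± 19.8 CPM (SD, n = 3) in the non-classical monocytes of HUPO mice. Reads of Ly6c2 may be shared with Ly6c1, a near-identical neighbour on chromosome 15, so the split between them is uncertain. Of 18 classical monocyte genes tested, 1 was called, Cd14, and the list summed to 65573, 60857 and 61374 CPM in FI1 and 66522, 68991 and 63954 in CM. Much of the sum was Lyz2, with means of 33565 CPM in FI1 and 42010 in CM. All FI1 libraries lay above all CM libraries for 6 of the 18 and below for 4, against 10.1% and 5.13% of all genes. Fn1 averaged 1797 CPM in FI1 and 546 in CM, and Plac8 2710 and 6344, neither of them called. Ccr2, named here after its values were seen, gave 1746, 963 and 1387 CPM in FI1 and 2238, 2270.2 and 1876 in CM, lower in every ankle library and not called (adjusted p = 1). Emr1 (now Adgre1), the gene of the macrophage surface protein F4/80, gave 268, 322 and 197 CPM in FI1 and 393, 359 and 360.1 in CM, all FI1 libraries below all CM libraries without passing the test (log2 fold change -0.50, SE 0.37, adjusted p = 0.663). Its mean was 1422 ± 126 CPM in the HUPO ankle population FH1, 485 ± 145 in FI2 and 192 ± 49.3 in FI3. The FI3 mean was thus below that of FI1 (262 CPM). With Ly6c2 values that overlap those of blood and 1 of 30 resident macrophage genes called higher, these values go against the label of macrophages, and the cells are called FI1 here.

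The targeted gene did not separate the groups. Cflar was at 70.7, 35.8 and 101 CPM in FI1 and 47.8, 82.3 and 26.3 in CM, with overlap (log2 fold change 0.41, SE 0.68, adjusted p = 1), and gene-level counts do not show the floxed part by itself. Itgax, whose promoter drives the cre, had 0 counts in all 6 HUPO libraries, so each group lies below the level of 3 counts (0.147 CPM in FI1 and 0.152 in CM). Control FI1 and CM had Itgax at 1.54, 35.1 and 52.6 and 145, 21.1 and 34.5 CPM.

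Across 12450 genes tested, 125 were called (1.00%), 106 of them higher in HUPO FI1 than in CM (0.851%) and 19 lower (0.153%). Without a test, all FI1 libraries lay above all CM libraries for 1252 genes (10.1%) and below them for 639 (5.13%), and the median log2 ratio of group means was 0.17. Of the 106 genes called higher, 39 had no count in any CM library. Of all 125 called genes, 47 were on a list of pathway or cell type genes and 78 on none. The count was 81 without blood library Bld_1606, 72 without ankle library Ank_1386, 81 without ankle library Ank_1231 and 49 without Bld_1606 and Ank_1386 together. With a term for sex over all libraries the count was 119, of which 107 were among the 125, and 6 of 60 calls for named genes were lost. It was 28 when the 6 libraries were fitted alone, 14 of them among the 125. Of 60 calls for named genes, that fit kept 10 (B3gnt5, Camp, Cd14, Il1b, Mcm5, Ngp, Prdx6, Retnlg, Rrm2 and Tsc22d3) and lost 49, Ccl2, Cxcl2, C5ar1, Fosl1 and Dusp1 among them, with no sign reversed.

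**Figure D1:**
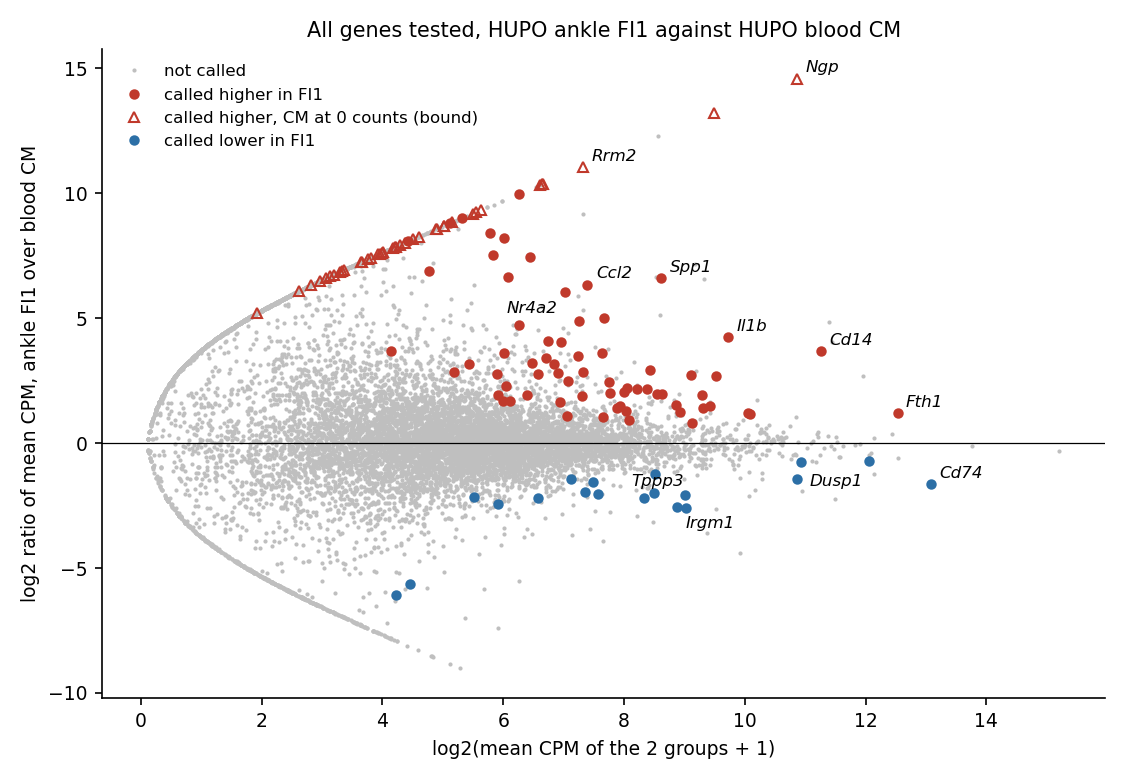
Each point is a gene tested, with the log2 of its mean CPM plus 1 over both groups on the horizontal axis and the log2 ratio of mean CPM of HUPO ankle FI1 over HUPO blood CM on the vertical axis. A group with fewer than 3 counts was set to 3 counts, triangles mark the 39 called genes with no count in CM, and the 106 genes called higher outnumber the 19 called lower.

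Ligands that draw monocytes and neutrophils into tissue rose in FI1. Of 23 chemokine ligands tested, 4 were called higher (0.851% of all genes were) and none lower. All FI1 libraries lay above all CM libraries for 10 and below for 1, against 10.1% and 5.13% of all genes. Ccl2 (chr11:82035571-82037453, plus strand), the main ligand of CCR2, was at 243, 314 and 435 CPM in FI1 and 2.32, 0.271 and 9.67 in CM. Every ankle library was far above every blood library (log2 fold change 6.36, SE 0.94, adjusted p = 0.000182). Ccl7, a second CCR2 ligand beside Ccl2 on chromosome 11, gave 54.4, 8.54 and 43.1 CPM in FI1 and no count in CM, a mean at least 233-fold above the level of 3 counts over the CM group (adjusted p = 0.000543). The neutrophil attractants Cxcl1 and Cxcl2 lie close together on chromosome 5. Cxcl1 was at 27.8, 14 and 190.2 CPM in FI1 against 1 count in CM, a ratio of 1720 (95% exact counting interval 308 to 67900), with ankle library Ank_1386 far above the rest (adjusted p = 0.000483). Cxcl2 was at 226, 214 and 732 CPM in FI1 and 1.74, 18.8 and 15.7 in CM, again highest in Ank_1386 and without overlap (log2 fold change 5.01, SE 1.00, adjusted p = 0.006). The median log2 ratio of the 20 ligands with a ratio was 2.84 beside 0.17 over all genes. Among 11 chemokine receptors tested, Cxcr4, the receptor that holds leukocytes in marrow and tissue, was the single call, at 57.8, 74.6 and 53.3 CPM in FI1 and 10.4, 5.42 and 9.67 in CM (log2 fold change 2.86, SE 0.53, adjusted p = 0.00276).

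The promoters of this pair of neutrophil attractants are printed because both genes were called and both windows hold the letters of an NF-kB site close to the start. The windows are RefSeq's (build GRCm38.p6), 250 bases before to 50 after the start, at chr5:90890995-90891294 and chr5:90903649-90903948, both on the plus strand. Capitals mark an NF-kB pattern (GGG, any 3 letters, T, any letter, CC), read on both strands, whose forward and reverse matches overlap here.
Cxcl1: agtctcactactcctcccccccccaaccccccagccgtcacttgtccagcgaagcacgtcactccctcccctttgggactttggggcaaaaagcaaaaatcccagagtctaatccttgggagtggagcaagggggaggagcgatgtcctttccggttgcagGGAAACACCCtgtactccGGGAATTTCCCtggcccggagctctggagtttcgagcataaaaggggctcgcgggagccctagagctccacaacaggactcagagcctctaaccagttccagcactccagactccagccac
Cxcl2: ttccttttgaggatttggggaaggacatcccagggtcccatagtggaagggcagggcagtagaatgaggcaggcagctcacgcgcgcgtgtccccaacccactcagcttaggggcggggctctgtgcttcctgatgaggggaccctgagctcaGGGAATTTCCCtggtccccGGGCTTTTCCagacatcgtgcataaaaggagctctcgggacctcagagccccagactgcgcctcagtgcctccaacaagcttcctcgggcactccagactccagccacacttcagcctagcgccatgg
Each window held 3 matches. The run GGGAATTTCC began 71 bases before the start of Cxcl1 and 97 before that of Cxcl2. The window of Il1b at chr2:129371090-129371389 held no match, and neither did any of the 3 hold the AP-1 letters TGANTCA. The NF-kB letters were in 17.4% of all 32851 RefSeq windows, in 24.2% of the 8856 genes tested that had a window and in 23 of the 81 genes called higher that had one (28.4%).

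Interleukin 1 genes accounted for the calls among inflammatory cytokines and receptors, 2 of 29 higher and none lower (0.851% and 0.153% of all genes were). In 8 of the 29 all FI1 libraries lay above all CM libraries and in 3 below, against 10.1% and 5.13% of all genes. Il1b (chr2:129364570-129371139, minus strand), the gene of interleukin 1 beta, gave 2037, 1169 and 1601 CPM in FI1 and 133, 79 and 40.7 in CM, and the lowest ankle library was above the highest blood library (log2 fold change 4.25, SE 0.48, adjusted p = 2.51e-06). Il1a was at 29.9, 6.25 and 10.6 CPM in FI1 with no count in CM, at least 103-fold (adjusted p = 0.0263), and its call was lost at adjusted p = 0.0803 without Bld_1505, 0.118 without Bld_1606, 0.0914 without Bld_1739 and 0.0637 without Ank_1170. Il1r2, the decoy receptor that binds interleukin 1 without signalling, was at 345, 569 and 649.7 CPM in FI1 and 73.6, 61.8 and 27.4 in CM, apart but not called (adjusted p = 0.115).

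Sensing receptors for microbes and damaged tissue showed the smallest p of the comparison. Cd14, the co-receptor that hands lipopolysaccharide to Toll-like receptor 4, was at 3047, 5049 and 5544 CPM in FI1 and 300.5, 458 and 315 in CM, group means of 4547 ± 1322 and 358 ± 87.1 (SD, n = 3). No ankle library came near the blood range (log2 fold change 3.67, SE 0.27, adjusted p = 1.85e-10). Of 25 pattern recognition receptors, 4 were called higher and none lower (0.851% and 0.153% of all genes were). In 8 of the 25 all FI1 libraries lay above all CM libraries and in 2 below, against 10.1% and 5.13% of all genes. Clec4e, the Mincle receptor for fungal and mycobacterial glycolipids, gave 750.2, 1137 and 1943 CPM in FI1 and 202, 267 and 120.4 in CM (log2 fold change 2.70, SE 0.62, adjusted p = 0.0191). Its partner in the same receptor family Clec4n (dectin 2) was at 42.2, 184 and 172 in FI1 and 0, 0 and 4.01 in CM (log2 fold change 6.70, SE 1.24, adjusted p = 0.00272). Fpr1, a receptor for bacterial formyl peptides, was at 39.4, 24 and 124 CPM in FI1 and without a count in CM, at least 412-fold (adjusted p = 0.0312). The Toll-like receptor genes of the list were not called, and Tlr2 and Tlr4, named after their values were seen, gave adjusted p of 0.193 and 0.694. The call of Clec4e was lost at adjusted p = 0.0646 without Bld_1505, 0.0543 without Bld_1606, 0.121 without Bld_1739 and 0.11 without Ank_1386, and that of Fpr1 at 0.0877 without Bld_1505, 0.132 without Bld_1606, 0.105 without Bld_1739 and 0.0825 without Ank_1386.

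Complement genes were called as well. C5ar1, the receptor of the chemoattractant C5a, was at 195, 163 and 243 CPM in FI1 and 2.61, 9.34 and 23.4 in CM, with the groups far apart (log2 fold change 4.10, SE 0.48, adjusted p = 4.49e-06). Cfp, the gene of properdin, which stabilises the alternative pathway convertase, gave 400.4, 281 and 356 CPM in FI1 and 48, 172 and 42 in CM (log2 fold change 1.99, SE 0.48, adjusted p = 0.0323). Itgam, which encodes CD11b, a chain of complement receptor 3, gave 695, 653 and 703 CPM in FI1 and 352, 299.6 and 223 in CM (log2 fold change 1.23, SE 0.27, adjusted p = 0.0134), and it was also the 1 call among 24 adhesion and transmigration genes. These were 3 of 17 Fc receptor and complement genes, none of them lower, while the median log2 ratio of the list was -0.74. All FI1 libraries lay below all CM libraries for 7 of the 17 and above for 5, against 5.13% and 10.1% of all genes. The scavenger receptor Olr1, which binds oxidised lipoprotein, was at 85.9, 59.6 and 26.1 CPM in FI1 with no count in CM, at least 377-fold (adjusted p = 0.0056), 1 of 14 phagocytic and scavenger receptors tested. Calls were lost for Cfp at adjusted p = 0.148 without Bld_1505, 0.187 without Bld_1739, 0.0939 without Ank_1170 and 0.0795 without Ank_1386 and for Itgam at 0.0521 without Bld_1606 and 0.0958 without Bld_1739.

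**Figure D2:**
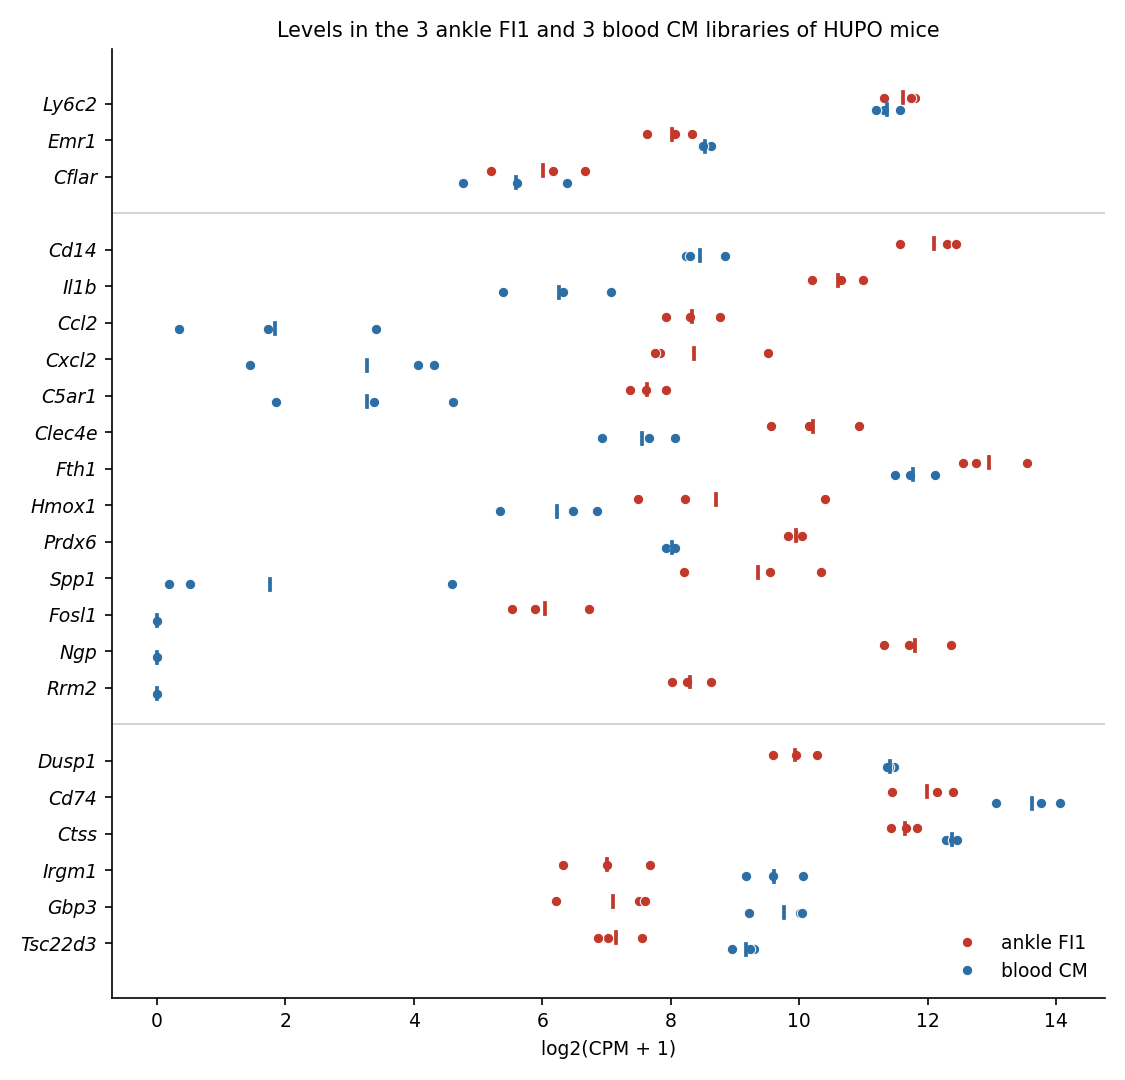
Points are single libraries and short bars group means on the log2(CPM + 1) scale, with ankle FI1 (red) drawn over blood CM (blue) in each row. The upper block holds genes that were not called, the middle block genes called higher in FI1, where Fosl1, Ngp and Rrm2 had 0 counts in CM, and the lower block genes called lower.

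Of 21 immediate early genes, 4 were called higher in FI1 and none lower. All FI1 libraries lay above all CM libraries for 9 of them and below for 3, against 10.1% and 5.13% of all genes. Their median log2 ratio was 1.24. Fosl1, a Fos family partner in the AP-1 complex, was at 45, 57.9 and 105 CPM in FI1 with no count in CM, at least 457-fold (adjusted p = 2.27e-05). Nr4a2, an orphan nuclear receptor, was at 179.8, 329 and 255 in FI1 and 0, 1.35 and 10.2 in CM (log2 fold change 6.06, SE 1.35, adjusted p = 0.0162). Rgs1, which dampens chemokine receptor signalling, was at 97.4, 38.8 and 187 CPM in FI1 and 23.3, 25.3 and 18.4 in CM (log2 fold change 2.27, SE 0.36, adjusted p = 0.000483), and the zinc finger factor gene Klf6 at 654, 553 and 858 and 379, 132 and 204 (log2 fold change 1.53, SE 0.33, adjusted p = 0.0131). Of Fos and Junb, named after their values were seen, Fos overlapped and Junb was lower in every ankle library, with adjusted p of 1 and 0.216. Of 20 NF-kB subunits and feedback inhibitors, Rela, the p65 subunit, was called higher at 214, 219 and 312 CPM in FI1 against 78, 53.9 and 67.3 in CM (log2 fold change 1.90, SE 0.46, adjusted p = 0.0323).

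Dusp1 was the call in the opposite direction on that list. It encodes a phosphatase that switches off the p38 and JNK kinases, and it was at 1243, 767 and 985 CPM in FI1 and 2849.7, 2709 and 2645 in CM, with every ankle library under every blood library (log2 fold change -1.45, SE 0.20, adjusted p = 6.92e-05). Tsc22d3, the glucocorticoid-induced gene GILZ, was lower too, at 187, 128 and 116 CPM in FI1 and 629.6, 495 and 601 in CM (log2 fold change -2.00, SE 0.38, adjusted p = 0.00358). Of 24 myeloid transcription factors, 2 were called higher and none lower (0.851% and 0.153% of all genes were). In 2 of the 24 all FI1 libraries lay above all CM libraries and in 2 below, against 10.1% and 5.13% of all genes. Bhlhe40, a basic helix-loop-helix factor gene, was at 107, 118 and 215 CPM in FI1 and 0, 16.7 and 0 in CM (log2 fold change 4.69, SE 0.83, adjusted p = 0.00189). Btg1, an antiproliferative gene, was the call among 14 quiescence and egress factors, at 1043, 1676 and 1728 CPM in FI1 and 805, 633 and 502 in CM (log2 fold change 1.20, SE 0.23, adjusted p = 0.00313). Calls were lost for Nr4a2 at adjusted p = 0.0533 without Bld_1505 and 0.115 without Bld_1606 and for Klf6 at 0.118 without Bld_1606, 0.072 without Bld_1739 and 0.0795 without Ank_1386. That of Rela was lost in each leave-out (0.0514 to 0.162).

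Single genes of iron, oxidant and low-oxygen handling rose in FI1. Of 20 oxidative stress and heme genes, 3 were called higher and none lower (0.851% and 0.153% of all genes were). The ratio of group means was above 1 for all 20. Fth1, the ferritin heavy chain, gave 6892, 5992 and 11935 CPM in FI1 and 3396, 4429 and 2870.4 in CM (log2 fold change 1.21, SE 0.20, adjusted p = 0.000483). Prdx6, a peroxiredoxin with phospholipase activity, gave 1009, 1053 and 909 in FI1 and 267, 243 and 268 in CM, both groups tight (log2 fold change 1.93, SE 0.32, adjusted p = 0.000707). Hmox1, the heme-degrading oxygenase, was at 179, 297 and 1354 CPM in FI1 and 115, 39.4 and 88.3 in CM, apart in all libraries but led by Ank_1386 (log2 fold change 2.92, SE 0.54, adjusted p = 0.00272), and its call was lost at adjusted p = 0.12 without Ank_1386. Among 25 hypoxia and glycolysis genes, 2 were called higher. In 10 of them all FI1 libraries lay above all CM libraries and in none the reverse, against 10.1% and 5.13% of all genes. Pkm2 (now Pkm), the pyruvate kinase of the last step of glycolysis, was at 1354, 1574 and 1571 CPM in FI1 and 859.8, 752 and 401 in CM (log2 fold change 1.16, SE 0.23, adjusted p = 0.00537). Slc16a3, which exports lactate, was at 149.9, 207 and 323 and 72.6, 40.4 and 9.49 (log2 fold change 2.47, SE 0.50, adjusted p = 0.00596). The call of Pkm2 was lost at adjusted p = 0.0533 without Bld_1739. In contrast, no oxidative phosphorylation gene (of 22) and no cytosolic ribosomal protein gene (of 26) was called, with list medians of 0.03 and -0.10. Both lists had 0 genes at an unadjusted p under 0.05 in edgeR and 0 called by DESeq2.

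Matrix and wound-type products were called in the ankle as single genes. Of 25 matrix protease genes and inhibitors, Timp1, an inhibitor of matrix metalloproteinases, was at 45.5, 16.5 and 68 CPM in FI1 with no count in CM, at least 285-fold (adjusted p = 0.000182). Ctss, given with antigen presentation, was the 1 lower call of that list. Plaur, the urokinase receptor, was at 759, 986 and 1282 CPM in FI1 and 438, 464 and 179.9 in CM (log2 fold change 1.48, SE 0.29, adjusted p = 0.00474). Thbs1, which encodes the matrix protein thrombospondin 1, gave 2961, 6203 and 6393 CPM in FI1 and 210.5, 209 and 120.0 in CM, groups that did not overlap and yet missed the threshold (log2 fold change 4.85, SE 1.43, adjusted p = 0.116). Of 16 lipid-associated macrophage genes, 3 were called higher and none lower (0.851% and 0.153% of all genes were). In 8 of the 16 all FI1 libraries lay above all CM libraries and in 1 below, against 10.1% and 5.13% of all genes. Spp1, the gene of osteopontin, was at 745, 294 and 1293 CPM in FI1 and 0.435, 0.135 and 23.2 in CM (log2 fold change 6.65, SE 1.40, adjusted p = 0.0156). Cd63, a tetraspanin of late endosomes, was at 46, 50.4 and 76.7 CPM in FI1 with no count in CM, at least 380-fold (adjusted p = 0.00155), and Cd9, another tetraspanin, at 163, 86.9 and 300.2 and 36.7, 59.9 and 81.7 (log2 fold change 1.63, SE 0.36, adjusted p = 0.0145).

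Smaller lists gave single calls, beside 0.851% of all genes called higher and 0.153% lower. Tgm2, a transglutaminase that crosslinks matrix, was at 86.8, 229 and 298 CPM in FI1 and 15.4, 2.44 and 50 in CM, 1 of 12 interleukin 4 induced genes (log2 fold change 3.18, SE 0.62, adjusted p = 0.00474). Lta4h, the enzyme that makes leukotriene B4, was at 363, 568 and 307 CPM and 82.9, 158 and 59.7, 1 of 16 eicosanoid enzymes (log2 fold change 2.04, SE 0.44, adjusted p = 0.0133). Hbegf, an epidermal growth factor receptor ligand, had no count in CM and 7.76, 0 and 82.2 CPM in FI1, so it was absent from an ankle library as well (adjusted p = 0.0462), 1 of 17 growth factors. Hspa1a, an inducible HSP70 gene that shares nearly all its sequence with Hspa1b, was at 524, 135 and 227 CPM in FI1 and 14.8, 0 and 15 in CM, 1 of 14 heat shock genes (log2 fold change 4.90, SE 1.20, adjusted p = 0.0345). Acp5, which encodes the tartrate-resistant acid phosphatase of osteoclasts, was lower, with 0, 0 and 1.54 CPM in FI1 and 66.2, 31.6 and 6.57 in CM, 1 of 12 osteoclast genes (log2 fold change -5.96, SE 1.52, adjusted p = 0.046). Calls were lost for Spp1 at adjusted p = 0.0619 without Bld_1505, 0.0759 without Bld_1606 and 0.0586 without Ank_1386, for Cd9 at 0.0869 without Bld_1505, 0.0644 without Bld_1606 and 0.223 without Ank_1386, for Lta4h at 0.06 without Bld_1505, 0.0934 without Bld_1739 and 0.0856 without Ank_1231, for Hbegf at 0.123 without Bld_1505, 0.172 without Bld_1606, 0.148 without Bld_1739, 0.0547 without Ank_1170 and 0.198 without Ank_1386, for Hspa1a at 0.073 without Bld_1505, 0.0935 without Bld_1606, 0.0907 without Bld_1739, 0.12 without Ank_1170 and 0.0609 without Ank_1386 and for Acp5 at 0.104 without Bld_1505, 0.0758 without Bld_1606, 0.183 without Ank_1170 and 0.2 without Ank_1231. edgeR called no gene among 15 non-classical monocyte genes (3 by DESeq2; unadjusted p under 0.05 for 1 higher and 2 lower) or among 30 cell death and survival genes (3 by DESeq2; 4 higher and 0 lower). Without blood library Bld_1505 it called 1 and 2 of them. The 1 call among resident macrophage genes was lost without Bld_1739 or Ank_1386.

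The genes of the class II invariant chain and of the protease that trims it fell in FI1. All FI1 libraries were below all CM libraries for 10 of 16 genes of MHC class II presentation (5.13% of all genes) and above for 1. The median log2 ratio was -1.39, and 2 were called lower (0.153% of all genes) and none higher. Cd74, the invariant chain that escorts class II molecules, was at 4546, 5365 and 2784 CPM in FI1 and 13930.2, 8590.0 and 16998 in CM (log2 fold change -1.64, SE 0.39, adjusted p = 0.0323). Ctss, the cathepsin that trims the invariant chain, was at 3658, 2741 and 3231 CPM in FI1 and 5003, 5351 and 5595 in CM (log2 fold change -0.73, SE 0.18, adjusted p = 0.0323). H2-Ab1 and H2-Eb1, which encode class II beta chains, showed the same separation without a call. H2-Ab1 was at 1069.8, 1391 and 543 CPM in FI1 and 5158, 2917 and 6214 in CM (log2 fold change -2.25, SE 0.58, adjusted p = 0.0558), and H2-Eb1 had an adjusted p of 0.0811. The call of Cd74 was lost at adjusted p = 0.0619 without Bld_1505, 0.134 without Bld_1739, 0.0871 without Ank_1170, 0.052 without Ank_1231 and 0.216 without Ank_1386, and that of Ctss at 0.101 without Bld_1606, 0.112 without Bld_1739, 0.202 without Ank_1231 and 0.139 without Ank_1386. In bulk libraries, fewer cells with a transcript and less of it per cell cannot be told apart.

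A pair of interferon-inducible GTPase genes fell in FI1. Gbp3, a guanylate-binding protein gene, was at 180.2, 193 and 73 CPM in FI1 and 591, 1032 and 1056 in CM (log2 fold change -2.58, SE 0.63, adjusted p = 0.0323). Irgm1, an immunity-related GTPase of intracellular defence, was at 204, 78.5 and 128 CPM in FI1 and 573, 1065 and 767 in CM (log2 fold change -2.55, SE 0.50, adjusted p = 0.00507). Both groups were apart in every library. Of 28 interferon-stimulated genes edgeR called none, also in each leave-out of a library, and DESeq2 called 3. At an unadjusted p under 0.05 there were 4 lower and 1 higher. In this list 10 genes had all FI1 libraries below all CM libraries (5.13% of all genes did) and 1 the reverse. Gbp2 gave 541, 428 and 251 CPM in FI1 and 1371, 2081 and 1785 in CM (adjusted p = 0.104). The call of Irgm1 was lost at adjusted p = 0.0521 without Ank_1231 and that of Gbp3 at 0.0971 without Bld_1606, 0.0901 without Bld_1739, 0.0857 without Ank_1170, 0.0753 without Ank_1231 and 0.218 without Ank_1386. In control mice Gbp3 was at 60.7, 40.3 and 78.4 CPM in FI1 and 73.7, 98.1 and 151 in CM, and Irgm1 at 48.5, 63.4 and 149 and 200.2, 83.5 and 65.1, so both had low levels in blood and ankle, and the difference between genotypes was not called (adjusted p = 0.564 and 0.3).

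The Irgm1 promoter is shown as the window of a lower gene with interferon response letters (RefSeq, GRCm38.p6, chr11:48871371-48871670, minus strand). Capitals mark an AP-1 match of TGANTCA, 115 bases before the start, and a pair of overlapping matches of GAAA, any 2 letters and GAAA again, the core of an interferon-stimulated response element (ISRE), that begin 30 and 24 bases before it.
Irgm1: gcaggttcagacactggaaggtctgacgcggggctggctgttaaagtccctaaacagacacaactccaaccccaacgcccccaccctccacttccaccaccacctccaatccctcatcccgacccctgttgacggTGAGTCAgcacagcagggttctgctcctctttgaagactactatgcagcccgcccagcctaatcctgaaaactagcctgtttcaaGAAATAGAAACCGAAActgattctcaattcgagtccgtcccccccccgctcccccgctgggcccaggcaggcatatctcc
The ISRE letters, read on both strands, were in 3.44% of all RefSeq windows, in 3.91% of genes tested with a window, in 4 of the 13 genes called lower that had one (30.8%) and in 3 of the 81 called higher (3.70%). These shares are descriptions of 13 and 81 windows and were not tested.

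The remaining genes with the largest falls were read from the whole table and have no common role. Tppp3, a tubulin-binding protein gene, was at 109, 77.1 and 155 CPM in FI1 and 809, 315 and 453 in CM (log2 fold change -2.21, SE 0.33, adjusted p = 0.000182). Clec4a3, a C-type lectin gene, was at 228, 141 and 223 and 690.2, 752 and 1046 (log2 fold change -2.07, SE 0.31, adjusted p = 0.000182). Rras, a small GTPase of the Ras family, was at 40.2, 28.5 and 33.3 and 128, 189.9 and 147 (log2 fold change -2.19, SE 0.44, adjusted p = 0.00562). P2ry6, a receptor for UDP, Gngt2, a G protein gamma subunit gene, Sap30, a subunit gene of a histone deacetylase complex, and the pseudogene Pisd-ps1 had adjusted p of 0.0225, 0.0264, 0.0387 and 0.0396. In every one of these 7 genes all FI1 libraries were below all CM libraries, which the rule for naming them required. Leaving out ankle library Ank_1231 gave Rras an adjusted p of 0.052, and the calls of the last 4 genes also depended on single libraries. P2ry6 was lost at adjusted p = 0.0568 without Bld_1505, 0.0692 without Bld_1739, 0.134 without Ank_1170 and 0.148 without Ank_1386, Gngt2 at 0.0851 without Bld_1505, 0.0614 without Bld_1739, 0.111 without Ank_1170, 0.0996 without Ank_1231 and 0.0929 without Ank_1386 and Pisd-ps1 at 0.091 without Bld_1505, 0.174 without Bld_1606, 0.205 without Ank_1170, 0.111 without Ank_1231 and 0.0885 without Ank_1386. Sap30 was lost in each leave-out (0.0674 to 0.266).

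**Figure D3:**
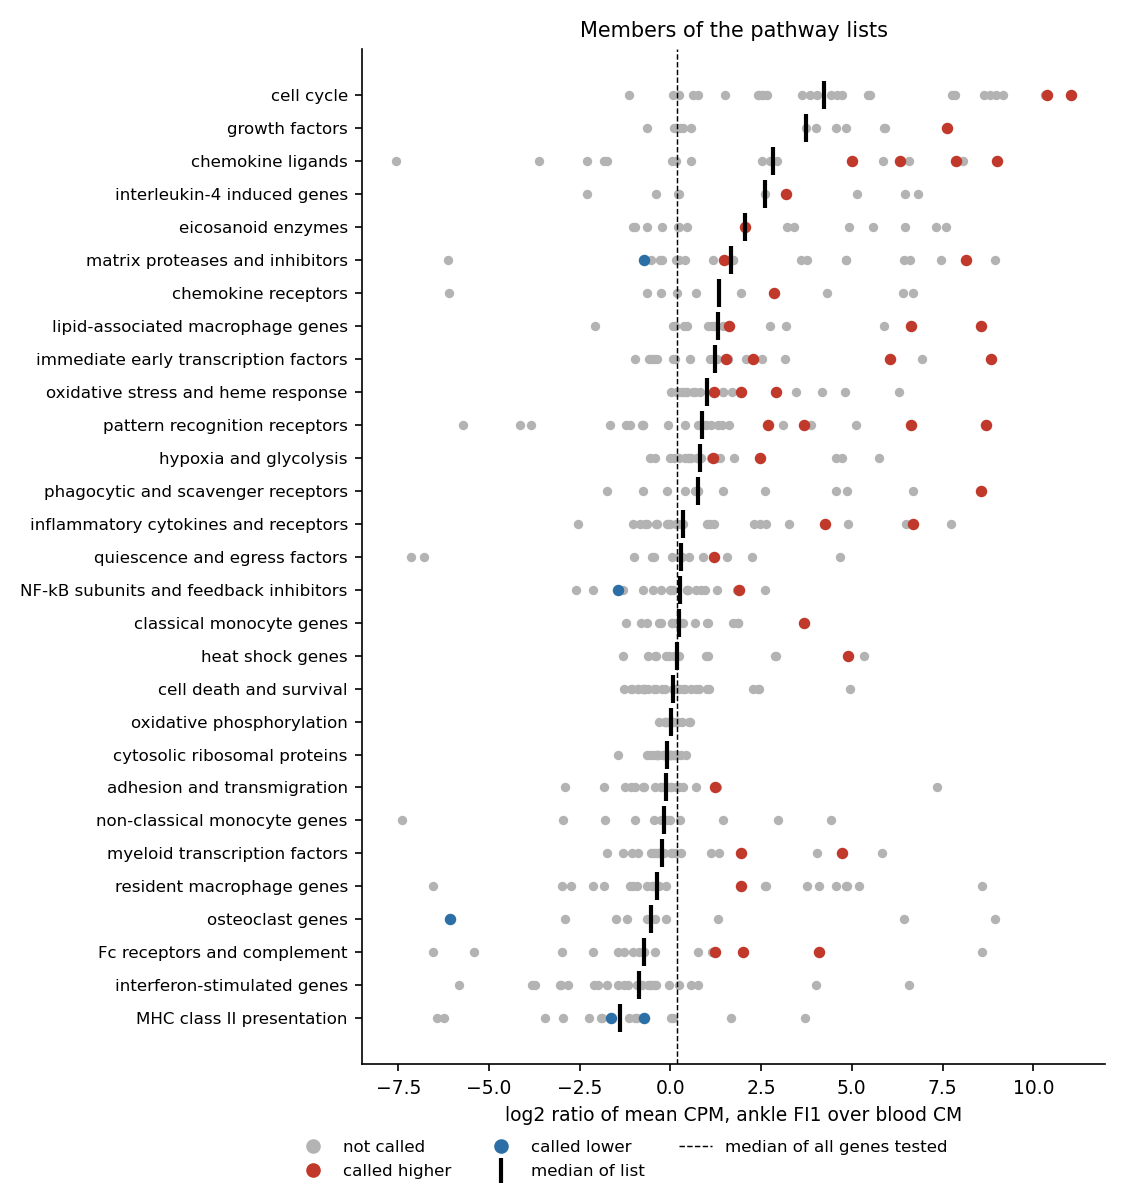
Rows are the 29 pathway lists, ordered by their median, and points are their members on the log2 ratio of mean CPM of HUPO ankle FI1 over HUPO blood CM, with a group under 3 counts set to 3 counts. Cell cycle genes have the highest median (4.24) and MHC class II genes the lowest (-1.39), and the dashed line is the median of all genes tested (0.17).

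Cell cycle genes summed to 4666, 3918 and 3483 CPM in FI1 and 1141, 881 and 1079.7 in CM, and 2 of 28 were called higher. All FI1 libraries lay above all CM libraries for 22 of 28 cell cycle genes, against 10.1% of all genes, and 9 of the 28 had no count in CM. The median log2 ratio was 4.24, and none was called lower. Rrm2, the ribonucleotide reductase subunit that supplies DNA synthesis, was at 396, 304 and 258 CPM in FI1 with no count in CM, at least 2100-fold (adjusted p = 0.0393). Mcm5, a subunit of the replicative helicase, was at 190.0, 230.4 and 181 CPM with no count in CM, at least 1320-fold (adjusted p = 0.045). Mki67, the common proliferation marker, missed the threshold at 285, 222 and 71.8 CPM in FI1 against no count in CM (adjusted p = 0.0597). Asf1b, a histone chaperone gene of replication, was called at 127, 44.4 and 105 CPM and also had no count in CM (adjusted p = 0.045). B3gnt5, a glycosyltransferase gene, and Dmkn, the gene of dermokine, are not cell cycle genes but were among the largest rises by the same rule, at 86.5, 262 and 247 and 69.6, 55.6 and 165 CPM in FI1 with no count in CM (adjusted p = 0.0459 and 0.0458). Their calls too were lost in each leave-out of a library (0.0617 to 0.171 and 0.0637 to 0.171). The calls of Rrm2, Mcm5 and Asf1b were lost in each leave-out of a library, at adjusted p of 0.0613 to 0.153 for Rrm2, 0.0637 to 0.174 for Mcm5 and 0.0607 to 0.171 for Asf1b.

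Neutrophil granule transcripts moved with the same contrast. The neutrophil list summed to 35996, 27341 and 24253 CPM in FI1 and 4997, 13189 and 4372 in CM, with blood library Bld_1606 highest of the CM. All FI1 libraries lay above all CM libraries for 15 of 21 genes and below for none, against 10.1% and 5.13% of all genes. Of the 21, 4 were called higher and none lower, and no member was at 0 counts throughout FI1, against 8 in CM. Ngp, a secondary granule protein gene, was at 5279, 3333 and 2562 CPM in FI1 with no count in CM, at least 24500-fold (adjusted p = 0.0166). Camp, the gene of the antimicrobial cathelicidin, was at 1928, 1346 and 1050.3 CPM, also with no count in CM, at least 9500-fold (adjusted p = 0.0166). Retnlg, a resistin-like gene of neutrophils, was at 137, 134 and 309 CPM with no count in CM (adjusted p = 0.0237), and Fpr1, given above, is on this list as well. S100a8 and S100a9, which encode calprotectin, were at 7614, 6037 and 6866 and 6783, 4393 and 4558 CPM in FI1 and at 236, 2802 and 182 and 31, 901 and 13.9 in CM (adjusted p = 0.458 and 0.355). The early granule protease genes Elane and Mpo, named after their values were seen, were at 704, 939.9 and 555 and 1157, 2040.0 and 613 CPM in FI1 and 0, 22.1 and 0 and 0, 40.1 and 0 in CM. The part of these transcripts in the calls for Il1b, Cxcl2, C5ar1, Fpr1 or the cell cycle was not tested. Calls were lost for Ngp at adjusted p = 0.06 without Bld_1505, 0.0893 without Bld_1606 and 0.072 without Bld_1739, for Camp at 0.0609 without Bld_1505, 0.0903 without Bld_1606 and 0.072 without Bld_1739 and for Retnlg at 0.0749 without Bld_1505, 0.11 without Bld_1606, 0.0903 without Bld_1739 and 0.0553 without Ank_1386.

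Markers of joint lining cells and fibroblasts varied between the ankle libraries. Their list summed to 1037, 168 and 3962 CPM in FI1 and 67.3, 3.8 and 69 in CM, and 15 of its 18 genes had no count in CM. Prg4, the lubricin gene of lining cells, was at 570.3, 87.3 and 2802 CPM in FI1 and 6.09, 3.79 and 13.9 in CM (adjusted p = 0.2). Dcn and Col3a1, matrix genes of fibroblasts, were at 129, 31.9 and 284 and 154, 0 and 300.2 CPM in FI1 and without a count in CM. The 1 call on this list, Pdpn (podoplanin), named for that reason, was at 4.27, 2.08 and 10.5 CPM in FI1 with no count in CM, at least 37-fold (adjusted p = 0.00731). Library Ank_1386, with the highest sum, also had the highest Cxcl1, Cxcl2, Hmox1, Timp1 and Spp1, and the part of lining cells in these levels was not tested. Without Ank_1386 the adjusted p was 0.0391 for Cxcl2 and 0.0586 for Spp1.

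Blood libraries held more transcripts of red cells and platelets. The erythroid list summed to 2778, 2352 and 631 CPM in CM and 61.9, 74.6 and 127 in FI1, almost all from the beta globin listed as Beta-s (2683, 2212 and 622 and 61.9, 74.6 and 127), and the platelet list to 62.3, 132 and 43.8 and 0, 0.2 and 17.4. T cell genes summed to 0, 0 and 0.1 CPM in FI1 and 7.4, 0.3 and 54.6 in CM, and B and plasma cell genes to 6.3, 8.3 and 10 and 35.1, 32.8 and 58.2. Dendritic cell, NK cell and endothelial sums overlapped between the groups, at 380.4, 319.6 and 353, 49.5, 101 and 40.2 and 21.7, 18.8 and 0 CPM in FI1 and 368, 640.5 and 571, 49.1, 0 and 52.2 and 8.6, 69.6 and 13.9 in CM. The mast cell list was at 56.9, 20.8 and 9.3 CPM in FI1, from Kit in Ank_1170 and Ank_1231 and Fcer1a in Ank_1386, and at 0 in CM. Skeletal muscle genes were at or near 0 in all 6 libraries, and cartilage and bone genes in all but ankle library Ank_1386 (57.6 CPM, all from Comp). edgeR called no gene of these 10 lists, and at an unadjusted p under 0.05 the largest number was 4, in the platelet list.

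**Figure D4:**
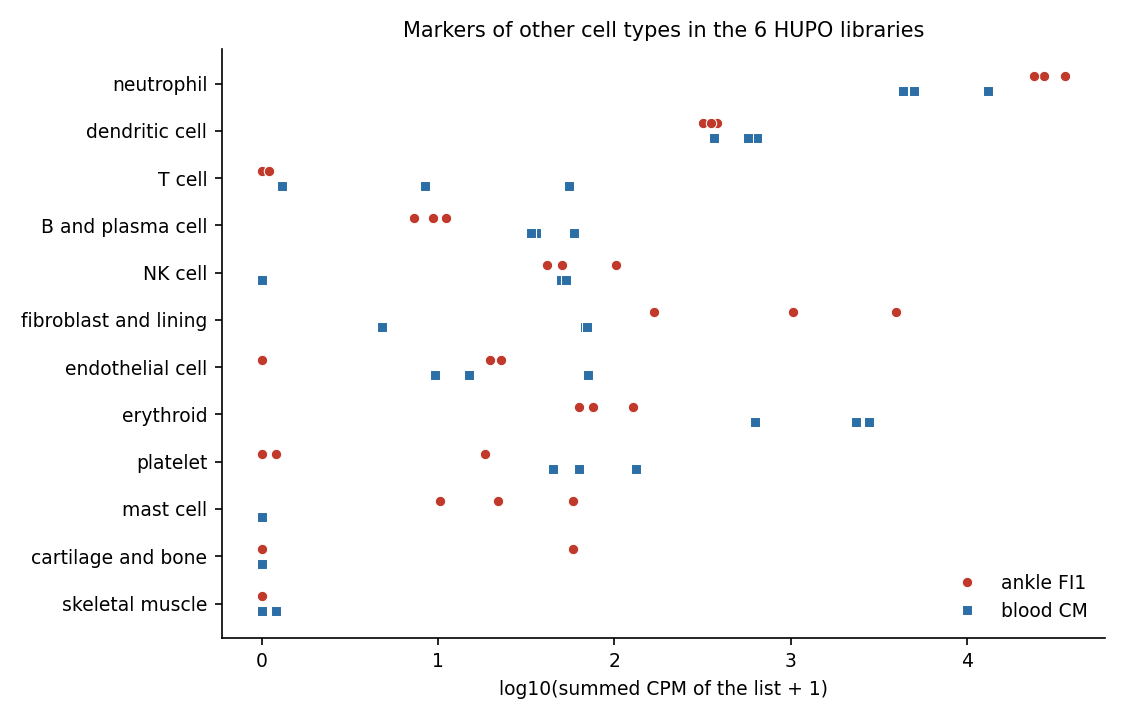
Points are the summed CPM of each list of other cell type markers in single libraries, on a log10(sum + 1) axis. Neutrophil and fibroblast sums are higher in all 3 ankle FI1 libraries, erythroid and platelet sums in all 3 blood CM libraries.

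The same ankle and blood populations of control mice gave 234 called genes (1.88%), 153 higher in FI1 (1.23%) and 81 lower (0.651%). Of the 106 genes called higher in HUPO FI1, 49 were called higher in control (46.2% of the 106 and 32% of the 153), and of the 19 lower, 10 were called lower in control (52.6% and 12.3%). Bmi1, higher in HUPO FI1, was called lower in control. The control count was 128, 138 and 131 without blood library Bld_1470, Bld_1506 or Bld_1508 and 152 without ankle library Ank_1194. All 3 control FI1 libraries carried Xist and all 3 control CM libraries Y-linked transcripts, so tissue and sex cannot be told apart there, and with a term for sex over all libraries the control count was 139. Cd14 was at 4083, 5954 and 7135 CPM in control FI1 and 288, 405 and 390.3 in control CM (log2 fold change 3.99, SE 0.28, adjusted p = 2.85e-11). Il1b was at 1886, 3246 and 2396 and 282, 252 and 352 CPM (log2 fold change 3.09, SE 0.45, adjusted p = 0.000133). C5ar1 was at 258, 539 and 461 CPM in control FI1 and 238, 98.9 and 130.1 in control CM, above blood in every ankle library without a call (log2 fold change 1.43, SE 0.43, adjusted p = 0.0866; adjusted p of the difference between genotypes 0.0661). Neutrophil transcripts were in control FI1 too, Ngp at 4897, 4140.2 and 5659.6 CPM and Camp at 1968, 1614 and 2954, against 0, 0.69 and 0 and 0, 0.276 and 0 in control CM. Rrm2 was at 331, 182 and 67.3 CPM in control FI1 with no count in control CM.

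The difference of the ankle-to-blood contrast between genotypes was called for 15 genes (0.120%), 11 more positive in HUPO mice (0.0884%) and 4 more negative (0.0321%). Dusp1 had the highest level among them. It fell in HUPO FI1 as given above and stood at 2587, 2285 and 1624 CPM in control FI1 and 2250.3, 1975 and 2084 in control CM, where the groups overlapped (log2 fold change -1.50, SE 0.28, adjusted p = 0.0157 for the difference). Mmp14, a membrane-bound matrix metalloproteinase gene, was at 17.8, 31.4 and 18 CPM in control FI1 and without a count in control CM, while HUPO FI1 and CM had 59.4, 13.3 and 65.2 and 63.1, 56.6 and 80.8 (adjusted p of the difference 0.0157). Nrm, a nuclear envelope protein gene, was at 110.1, 91 and 62.9 CPM in HUPO FI1 with no count in HUPO CM, and at 130.3, 57.9 and 131 and 41.7, 47.1 and 18.7 in control (adjusted p 0.0362). Ptp4a3, a phosphatase gene, had no count in control FI1 and 88.1, 66 and 39.1 CPM in control CM, with 17.2, 16.3 and 41.4 and 8.26, 0.271 and 16.8 in HUPO mice (adjusted p 0.0378). Without HUPO FI1 library Ank_1231 no difference was called at all, with adjusted p of 0.0589 for Dusp1 and 0.0584 for the other three, and fitting the 12 libraries alone gave 0 calls as well. The count was 7 and 8 without HUPO FI1 Ank_1170 or Ank_1386, 8 and 33 without control FI1 Ank_1392 or Ank_1167, and 34 and 25 without HUPO CM Bld_1505 or Bld_1739. Nrm was also lost without control FI1 Ank_1194 or Ank_1392, HUPO FI1 Ank_1170 or HUPO CM Bld_1606 or Bld_1739 (0.0538 to 0.0847), and Ptp4a3 without control FI1 Ank_1167, Ank_1194 or Ank_1392, HUPO FI1 Ank_1170 or Ank_1386, or HUPO CM Bld_1505 or Bld_1606 (0.0518 to 0.118). DESeq2 called 1146.

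**Figure D5:**
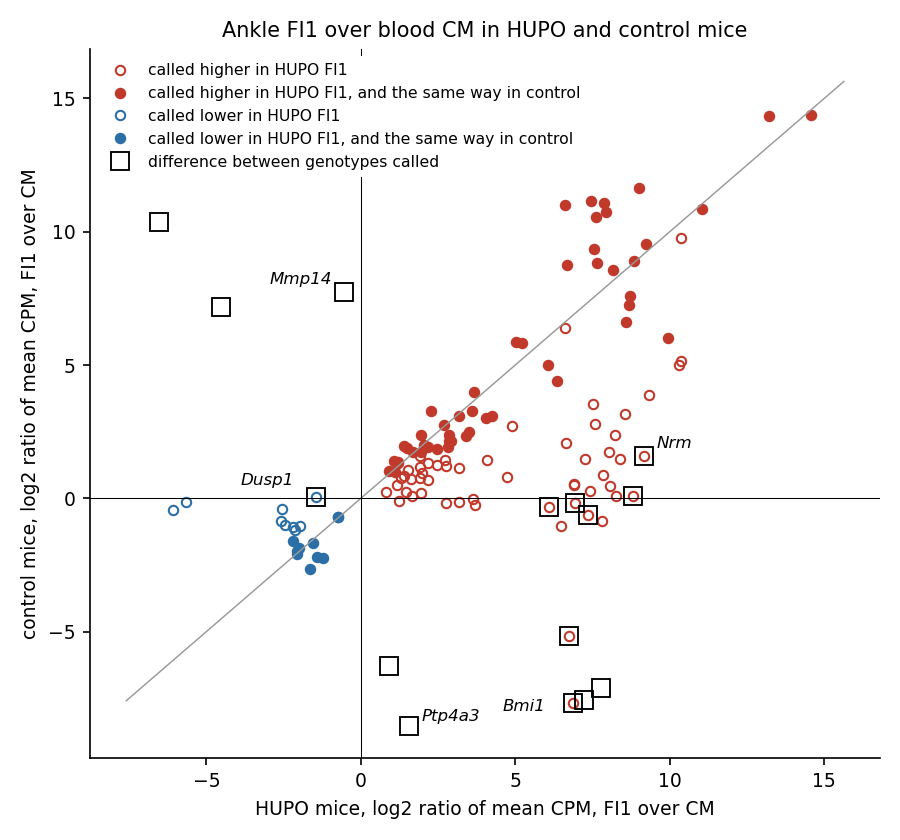
Genes called between ankle FI1 and blood CM in HUPO mice are plotted by their log2 ratio of mean CPM in HUPO mice (horizontal) and in control mice (vertical), with a group under 3 counts set to 3 counts and a grey line where both are equal. Filled points were called the same way in control mice (49 higher, 10 lower), and squares mark the 15 genes whose difference between genotypes was called, also where HUPO mice gave no call.

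HUPO FI1 was also set against HUPO FI2 and FI3, ankle populations of the same 3 animals, for the genes named here, of which 4 were called higher and 20 lower in FI1 (over all genes 208 of 12450 were called, 1.67%, with 0.731% higher and 0.940% lower). Ly6c2 averaged 1056 ± 314 CPM in FI2 and 61.9 ± 10.8 in FI3 against 3175 ± 543 in FI1 (log2 fold change 3.64, adjusted p = 4.22e-06). Plac8, another classical monocyte gene, was higher in FI1 (log2 fold change 3.34, adjusted p = 0.027), as were Lta4h (log2 fold change 2.20, adjusted p = 0.000221) and Asf1b (adjusted p = 0.0301). Cd74 lay lower in FI1 than in FI2 and FI3 (log2 fold change -2.53, adjusted p = 0.000103), with H2-Ab1 (log2 fold change -3.29, adjusted p = 0.00081) and H2-Eb1 (log2 fold change -3.52, adjusted p = 0.000103). Several genes that were higher in FI1 than in blood were higher still in FI2 and FI3. Cd14 averaged 11274 ± 909 CPM in FI2 and 6589 ± 329 in FI3 (log2 fold change -0.92, adjusted p = 0.0206), C5ar1 1313 ± 181 and 715 ± 131 (log2 fold change -2.27, adjusted p = 0.00081), and Fth1, Rgs1 and Cd9 had log2 fold changes of -1.34, -2.67 and -3.34 (adjusted p = 1.33e-05, 6.51e-06 and 4.89e-07). Il1b, Ccl2, Cxcl1, Cxcl2 and Ccl7 were not called between these ankle populations. Il1b averaged 4700 CPM in FI2 and 2760 in FI3 against 1602 in FI1, and Cxcl2 1847 and 1113 against 391. In the same order the means were 258, 140 and 77.3 for Cxcl1, 356, 119 and 35.4 for Ccl7 and 556, 186 and 331 for Ccl2. With the animal as a block, calls were lost for Itgax (adjusted p = 0.0547), P2ry6 (0.147) and Tgm2 (0.0593). The block gained calls for Lyz2 (0.036), higher in FI1, and for Mcl1 (0.0382), Spp1 (0.0381) and Tsc22d3 (0.0447), lower in FI1. Spp1 averaged 17487 CPM in FI2 and 13811 in FI3 against 777 in FI1.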

How the data were processed

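Gene counts were deposited per library as whole numbers for 23337 gene symbols, from sorted cells (over 400 per library) amplified with SMART-Seq v4 and read as single 75-base reads, per the labels' protocols. The submitters' processing notes name FastQC, STAR, HTSeq, Cufflinks and mm10, with no versions given in the sources used here. Per the design text, the authors had left out low-quality libraries and outlying samples. Floors and the exact counting interval cover counting error only, since PCR copies of a molecule cannot be recognised here. Both pool the counts of the 3 libraries of a group and leave out the spread between animals. A gene with no count in a group was set against 3 counts over that group, and list medians used the same floor.

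The counts were fitted with edgeR 4.0.16 in R 4.3.3 over all 39 libraries, which share 1 trended dispersion (median 2.29, 26 residual degrees of freedom), after filterByExpr (12450 genes kept) and TMM scaling (factors 0.829 to 1.16). Quasi-likelihood tests gave 4 contrasts, each adjusted over all genes by Benjamini-Hochberg with a threshold of 0.05. A test of 1 value alone, 3 libraries against 3, could not go below an exact p of 0.1. DESeq2 1.42.0 was an alternative, beside other scalings, filters, dispersions, a term for sex, the compared groups alone and each library left out. The fit was also run on simulated counts from independent libraries, with a dispersion set below the median of these data. That run cannot show how reliable the calls here are.

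The members and lists were chosen with earlier results of these data known. The 41 lists hold 728 entries, of which 705 matched a current symbol, 18 an older one and 5 none. Genes were named by rule: Cflar, Itgax, Emr1 and Ly6c2, up to 10 largest called changes a direction with at least 32 CPM in each library of the higher group and no overlap between the groups, up to 4 genes of smallest p per pathway list, the 3 highest of each other-cell list, and up to 6 called differences between genotypes a direction. FI1, FI2 and FI3 came from the same 3 animals, by the labels, and the correlation of same-animal deviations ran from -0.0138 to 0.0356. Promoter windows are RefSeq's (GRCm38.p6), and gene positions GENCODE's vM21. Libraries of the other populations entered the fit, and HUPO non-classical monocytes and FH1 gave 1 level each for comparison. Some items of the lists are not reported here.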

Additional observations from a re-analysis of the deposited data

Results flagged for a closer look

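For 15 genes the difference between ankle FI1 and blood CM was tested to differ between HUPO and control mice, and each is given with the adjusted p of that difference in edgeR's test. Values are CPM. In control mice ankle and blood also differ in sex transcripts, and the part of sex was not tested. With a term for sex over all libraries 5 genes were called.

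Dusp1 (0.0157) fell in HUPO FI1 and was not called in control mice. Mmp14 (0.0157) and the complement gene C1qa (0.0157) were present in control FI1, with no count in control CM, and C1qa was at 0, 0.417 and 0 in HUPO FI1 and 16.7, 0 and 24.4 in HUPO CM. Creb5 (0.0403), a transcription factor gene, was at 13.2, 26.2 and 6.39 in control FI1 with no count in control CM, and at 0, 0 and 2.82 and 25.7, 39.5 and 0 in HUPO mice.

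Bmi1 (0.0157), a Polycomb gene, was at 39.2, 14 and 0 in HUPO FI1 and 43.9, 0.69 and 62.3 in control CM, and without a count in HUPO CM and control FI1. Lrp6 (0.0157), a Wnt co-receptor gene, and Slc35d1 (0.0389), a nucleotide sugar transporter gene, had the same arrangement, at 14.1, 26.3 and 27 and 16.9, 51.5 and 31 in HUPO FI1 and 0, 55.2 and 44.3 and 46.7, 1.1 and 24.8 in control CM. Dync1li1 (0.0157), Spred1 (0.0362), Nrm (0.0362), Tusc3 (0.0362), Ptov1 (0.0389) and Tef (0.0389) had at most 1 count in HUPO CM, against 33.2, 29 and 77.3, 50.6, 22.2 and 41.5, 41.7, 47.1 and 18.7, 23.6, 24.1 and 16.5, 15.5, 31.6 and 58.9 and 19.4, 24.7 and 25 in control CM. Ptp4a3 (0.0378) and 0610009B22Rik (0.0478) had no count in control FI1. Apart from Dusp1, every gene of the 15 had a group with no count or a single count in all its libraries, among groups of 3.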

How the results depend on the processing

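The 125 calls between HUPO FI1 and CM became 28 when only the groups compared were fitted, 283 with the edgeR 4 quasi-likelihood method, 1520 with DESeq2 and 49 without blood library Bld_1606 and ankle library Ank_1386 together, an alternative chosen after seeing the data, and 72 to 146 when 1 library was left out. With a term for sex the 125 calls became 119. The 234 control calls became 44, 547 and 1734 with the same first 3 alternatives. They became 139 with the term for sex and 128 to 274 when 1 library was left out. The 15 differences between genotypes became 0, 1 and 1146, 5 with the sex term, 9 without Bld_1606 and Ank_1386, and 0 to 34 when 1 library was left out. The 208 calls against FI2 and FI3 became 599 with edgeR 4 and 1337 with DESeq2. The compared groups alone leave fewer libraries for the dispersion, and the cause of the other changes was not tested.

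With the animal as a replicate block, 189 genes were called against FI2 and FI3. No paired analysis was possible because blood and ankle libraries came from different animals in the other 3 contrasts. Of 60 named calls 26 held in every leave-out of 1 library and 3 (Cd14, Il1b and Prdx6) in every alternative, and 0 reversed.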
